A study of Mus musculus with 2 samples.

Results

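Zfp608 and Zfp609, 2 of the 21728 protein-coding genes on mouse chromosomes 1 to 19 and X, were described by the accessible chromatin found in and around them in whole embryos. Both were taken by symbol from the GENCODE M21 annotation of the mm10 build. For each gene the gene body was used together with its territory, meaning all bases whose closest 5'-most transcription start site (TSS), among protein-coding genes, is its own. The pair was chosen on earlier counts of these data, in which the Zfp608 territory had the most distal peaks. Numbers and densities of distal peaks are therefore given as a description and support nothing.

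The genes encode paralogous zinc finger proteins of the nucleus, whose fly homolog is scribbler (also called brakeless), a transcriptional corepressor. In mouse thymocytes Zfp608 has been reported to repress Rag1 and Rag2, the genes of the V(D)J recombinase, and Zfp609 to lower Zfp608 expression. Zfp609 has also been reported to act with the cohesin loader Nipbl and the Integrator complex in progenitors of the cortex, and its human counterpart gives rise to a circular RNA studied in muscle precursors. Peaks of DNase cleavage mark promoters and distal elements such as enhancers, but a peak near a gene is not by that shown to act on it.

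DNase-seq, which sequences the ends that DNase I leaves where nucleosomes do not shield DNA, was done on embryos aged 11 days. The single group comprised 2 biological replicates of strain B6NCrl. Both sexes were pooled in each replicate, and the labels give each its own biosample entry and a donor entry in common and name no transgene or treatment. Replicate 1 had 204697 peaks and replicate 2 had 231103, nearly all 150 bp wide, and the broader hotspots of enriched cleavage numbered 179603 and 197152. Read depth is unknown, since the files hold intervals and not reads, and intervals on shares (Wilson, 95%) cover counting error only. Peaks and genes are not replicates, so no test was made, and in a whole embryo fewer open cells of a type and less accessibility per cell cannot be told apart. RNA was not measured here.

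Zfp608 (ENSMUSG00000052713.9) lies on the minus strand at chr18:54888048-54992555, a gene body of 105 kb with 4 annotated transcripts. Its 5'-most TSS is 2389 bp from that of the principal transcript, which has 10 exons. The territory spans 1269 kb, from 565 kb downstream to 704 kb upstream of the 5'-most TSS, and 188 is its rank by length. The closest protein-coding starts on either side are those of Csnk1g3, a casein kinase gene 1130 kb away, and Gramd3, a GRAM domain gene 1408 kb away. The gene thus stands far from its protein-coding neighbours on both sides.

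Zfp608 had a promoter peak in each replicate, that is, a peak within 500 bp of an annotated TSS. Of all protein-coding genes, 70.3% had one in both replicates (71.2% in replicate 1 and 72.1% in replicate 2). The best-scoring promoter peak, at chr18:54992576-54992725, lay 96 bp from the 5'-most TSS and scored 133 in replicate 1 and 129 in replicate 2. The score is the authors' own whole number from 1 to 150 and serves only to rank peaks of a list. A neighbouring peak 496 bp upstream scored 98 and 115. At the downstream start of the principal transcript, peaks at chr18:54990576-54990725 (100 and 117) and at chr18:54990016-54990165 (86 and 87) lay 485 bp and 75 bp from the closest start. Accessible sites thus stood at the 5'-most start and at that of the principal transcript, and the highest score was at the former. The other 2 annotated transcripts start inside the gene, where no peak lay within 1 kb.

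The territory of Zfp608 held 256 peaks in replicate 1 and 270 in replicate 2. A peak was called shared when it overlapped one of the other replicate, and 205 of the replicate 1 peaks were shared. That is 80.1% (interval 74.8 to 84.5), against 79.5% of all replicate 1 peaks. From the replicate 2 side, 209 peaks were shared, or 77.4% (72.1 to 82.0), against 70.2% of all. Sharing was thus near the background in replicate 1 and above it in replicate 2, the longer list. Peaks seen in 1 replicate numbered 51 and 61, with lower median scores of 36 and 41. Of these, 10 (19.6%) and 9 (14.8%) lay over a hotspot of the replicate that lacked the peak, beside 22.9% and 11.2% of all such peaks.

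Distal peaks, with a midpoint over 1 kb away from any TSS of a protein-coding gene, numbered 250 and 263, of which 199 were shared, the first rank by count in either replicate and in the shared set. Distal sharing ran at 79.6% (74.2 to 84.1) in replicate 1 and 77.2% (71.7 to 81.8) in replicate 2, beside 78.0% and 67.9% of all distal peaks. The shared density was 15.7 per 100 kb of territory, and the densities of all distal peaks were 19.7 and 20.7 in the 2 replicates. The median gene had 2 shared distal peaks, and 18 genes (0.0828%) had at least 100. Density ranked 176 among the 5858 territories of at least 100 kb, so Zfp608 was first by number but not by density. Among the 302 territories of at least 1000 kb, Zfp608 ranked 1 by number and by density, where the median territory had 26.5 shared distal peaks at 1.76 per 100 kb. Spacing between neighbouring shared distal peaks had a median of 1.92 kb, against 5.88 kb over all territories.

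**Figure D1:**
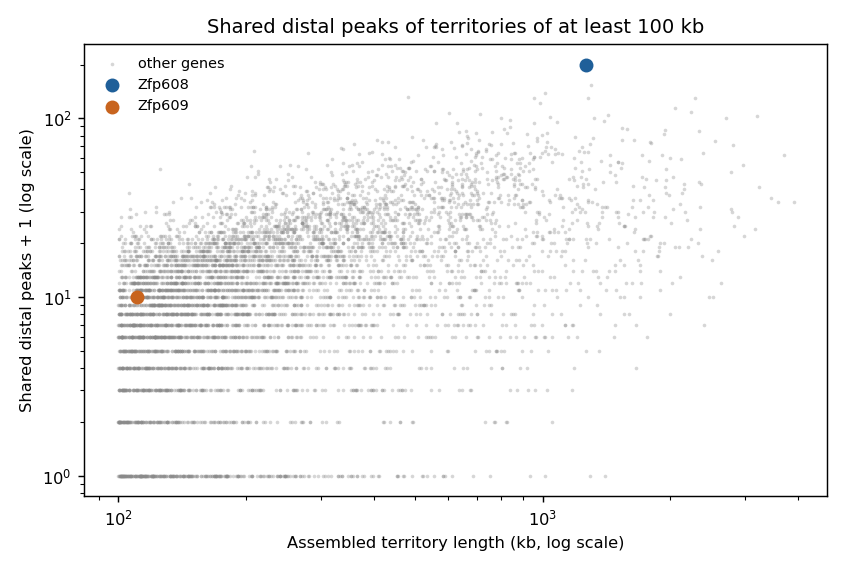
Each grey dot is a protein-coding gene with a territory of at least 100 kb, placed by territory length (kb, log scale) and by its shared distal peaks plus 1 (log scale). Zfp608 (blue), with 199 shared distal peaks in 1269 kb, lies above all the others, and Zfp609 (orange), with 9 in 111 kb, lies inside the cloud.

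The next territories by shared distal peaks were those of Nr2f2, an orphan nuclear receptor gene (153), Lrmda (138) and Zfp36l1, a gene for an RNA-binding protein (131). The transcription factor genes Zfhx3 and Sox9 and the adhesion receptor gene Adgrl2 had 129 each, and the homeobox gene Meis1 had 121. The axon guidance genes Robo1 (113) and Efna5 (108) completed the first 10. By territory length, number of shared distal peaks and the share of them upstream, the genes most like Zfp608 among 3906 genes with at least 10 such peaks were Nr2f2, Sox9, Adgrl2, Meis1 and Sox11. Their Euclidean distances over these 3 standardised measures were 0.723, 0.901, 1.13, 1.16 and 1.43. Likeness here is in the layout of peaks alone.

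Shared peaks lay along the whole Zfp608 territory, on both sides of the gene. Of the 199 distal ones, 109 were upstream and 90 downstream of the 5'-most TSS. The upstream share of 54.8% (47.8 to 61.5) was close to the 55.5% of the territory that is upstream, and the densities were 15.5 and 15.9 per 100 kb. Over all territories, 43.4% of shared distal peaks were upstream. In windows of 25 kb, the median was 4 peaks in each replicate, and 3 and 4 of the 50 windows were empty. The windows on either side of the start had 16 and 13 peaks (0 to 25 kb downstream) and 11 and 17 (0 to 25 kb upstream), so replicate 1 was fullest downstream and replicate 2 upstream of it. The window 75 to 100 kb downstream, inside the gene, had 14 and 15. Far from the gene, the window 550 to 575 kb upstream had 10 in each replicate.

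By distance from the 5'-most TSS, the density of shared peaks beyond 1 kb was highest from 1 to 10 kb downstream. There, 11 and 8 peaks with 7 shared gave 77.8 per 100 kb, against 10.1 over all genes. That class holds the start of the principal transcript, 2389 bp from the 5'-most one. Its 7 shared peaks include those 75, 485 and 515 bp from that start, so they are not all distal peaks. From 1 to 10 kb upstream the density was 33.3, against 7.26. Between 10 and 50 kb upstream replicate 2 had 22 peaks and replicate 1 had 11, and all 11 of replicate 1 were shared. The lowest class, 50 to 100 kb upstream, stood at 8 against 5.55. Beyond 500 kb upstream, 46 and 39 peaks with 34 shared gave 16.7 per 100 kb, against 1.62 in the territories of all genes that reach so far. The 34 include 9 peaks within 3.33 kb next to the territory's edge. With these counted, the outer upstream reaches of the Zfp608 territory were as dense as those 100 to 250 kb from the start, also 16.7. Density over all genes fell with distance, but each class there draws only on the territories that reach it.

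**Figure D2:**
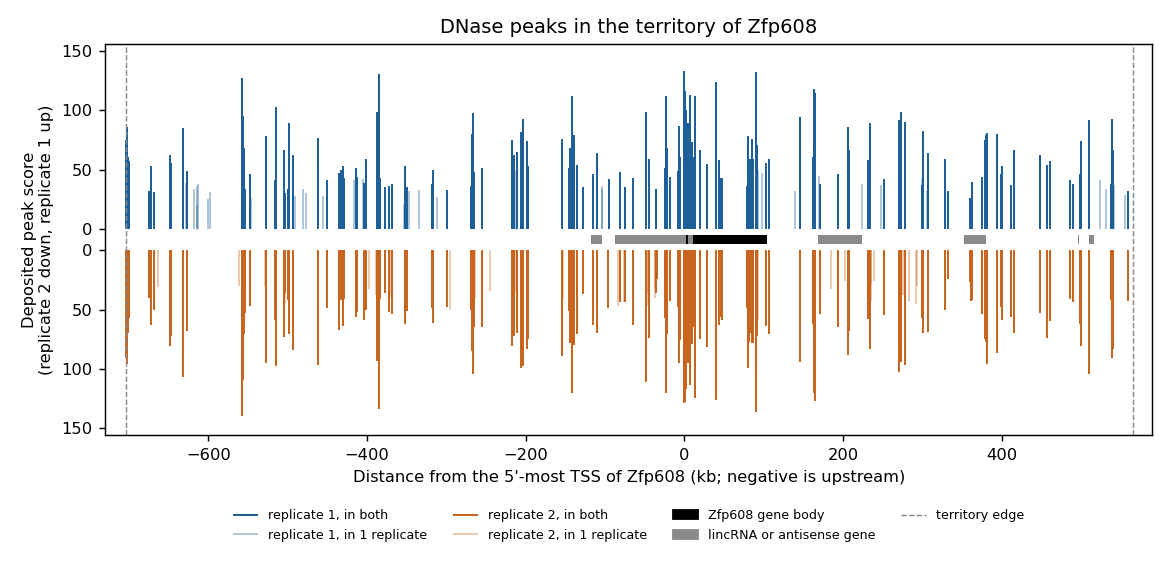
Peaks of replicate 1 (blue, upward) and replicate 2 (orange, downward) are drawn by distance from the 5'-most TSS of Zfp608 (kb, upstream negative), with the deposited score as height and peaks of 1 replicate in pale colour. The black bar is the Zfp608 gene body, grey bars are lincRNA or antisense genes and dashed lines are the territory edges; tall shared peaks stand at the promoter, in the gene and as far as 557 kb upstream.

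**Figure D3:**
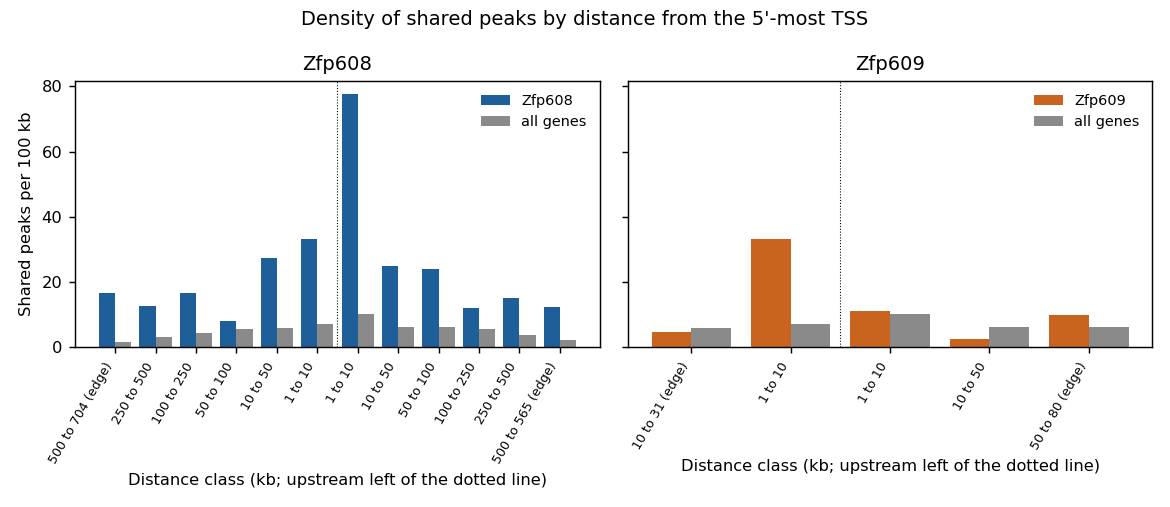
Bars give shared peaks per 100 kb (vertical axis) in classes of distance (kb) from the 5'-most TSS for Zfp608 (blue) and Zfp609 (orange), beside all genes (grey). The class 1 to 10 kb downstream of Zfp608 includes promoter peaks of its principal transcript. Zfp608 stands above all genes in each class, whereas Zfp609 is at 33.3 against 7.26 from 1 to 10 kb upstream and below all genes from 10 to 50 kb downstream, at 2.5 against 6.23.

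An equal window around each start removes the difference in territory length. Within 50 kb of the 5'-most TSS, Zfp608 had 33 and 40 distal peaks with 28 shared, and 99.5% of genes had fewer shared ones. The median gene had 5 and the 90th percentile was 12. Within 100 kb the numbers were 51 and 62 with 44 shared, against a median of 11. These peaks are among those on which Zfp608 was chosen, so its high place in equal windows is a description and no further support.

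The Zfp608 gene body held 38 and 36 peaks with 31 shared, or 29.7 per 100 kb, ranking 23 by density among 4996 genes of at least 50 kb, whose median was 6.98. These peaks lay mainly in the long introns. Intron 2 (40.8 kb) had 15 and 10 peaks with 10 shared, and intron 3 (46.3 kb) had 14 and 16 with 14 shared. Introns 4 to 9, none longer than 2.55 kb, had no shared peak, and 2 shared peaks lay in exons. The gene body takes up 105 kb of the territory's 1269 kb, so most bases lie outside it. Of all 205 shared peaks in the territory, 172 (83.9%) lay outside protein-coding genes and promoters. Some of these lay inside the noncoding genes named below.

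The highest-ranked peaks of the Zfp608 territory were spread over more than 600 kb. The best by mean rank, at chr18:54902356-54902505 in intron 3, lay 90.1 kb downstream of the TSS and scored 132 and 136, within the top 2.43% of the lists on average. A peak at chr18:55549816-55549965, 557 kb upstream, scored 127 and 140, and a peak at chr18:55377816-55377965, 385 kb upstream, scored 131 and 134. These distal sites thus scored like the promoter peak itself (133 and 129). The fifth, at chr18:54952516-54952665 in intron 2, scored 124 and 126. The shared peaks farthest from the start lay 703 kb upstream (75 and 91) and 559 kb downstream (32 and 43).

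Scores of distal peaks in the Zfp608 territory were above the genome's. The median was 51 in replicate 1 and 59 in replicate 2, against 41 and 46 for all distal peaks. Scores of at least 80 in replicate 1 and 87 in replicate 2, which 10.1% and 10.4% of all distal peaks reached, were found for 39 (15.6%, 11.6 to 20.6) and 44 (16.7%, 12.7 to 21.7) of its distal peaks. Shared peaks over 500 kb from the start had median scores of 56.5 and 69.5, those at 100 to 500 kb had 53 and 64 and those at 1 to 100 kb had 61 and 74. The middle class was thus the lowest in both replicates, and all 3 were below the peaks within 1 kb of the start (98 and 115). Among the other 17 genes with at least 100 shared distal peaks, the median scores spanned 32 to 57 and 35 to 58, respectively, and Zfp608 was above 15 and 17 of them.

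Shared peaks of Zfp608 came in runs. Joining those at most 2 kb apart gave 97 runs, of which 53 were single peaks and 24 had 3 or more, the latter holding 112 of the 205 shared peaks. The longest by number had 9 peaks in 3.33 kb at chr18:55692616-55695945, 702 kb upstream and next to the territory's edge. No peak of that run lay beyond the edge, but the next shared peak outside was 2084 bp past it, so its assignment to Zfp608 over Gramd3 rests on the midpoint between the 2 starts. A run of 8 peaks in 5.09 kb covered the promoter (median scores 93.5 and 105), and another of 8 in 3.87 kb stood about 555 kb upstream, at chr18:55546096-55549965. The longest stretch without a peak in either replicate was 42.6 kb, centred 176 kb upstream.

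Hotspots, which come from the same libraries as the peaks, also covered more of the Zfp608 territory than of the genome. The Zfp608 territory had 211 and 221 hotspots, covering 6.34% and 6.55% of its bases, and 5.33% (67.7 kb) in both. The genome's shares were 2.41%, 2.85% and 2.11%, and the territory ranked 293 of 5858 by bases covered in both. Hotspots at the ceiling of 100 on the −log10 q scale numbered 59 (28.0%) and 57 (25.8%), below the 33.3% and 34.1% of all hotspots. Coverage was thus raised by more hotspots, without a raised share at the ceiling. The widest hotspot region found in both, 3821 bp with 6 shared peaks, was not at the promoter but 556 kb upstream, at chr18:55546718-55550538, overlapping the run of 8.

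Several noncoding genes share the Zfp608 territory. Of 16 with a start there, 7 were lincRNA or antisense genes, and 2 had a shared peak within 500 bp of their start. Gm4221, an antisense gene, starts at chr18:54990265, next to the start of the principal Zfp608 transcript at chr18:54990166. Its start is 2.29 kb downstream of the 5'-most TSS of Zfp608. It runs on the opposite strand across that TSS and far upstream, and held 22 shared peaks. AC115119.1, a lincRNA gene 381 kb downstream, has its start 19 bp from a shared peak and held 8. Peaks near Zfp608 promoters cannot be split between Zfp608 and Gm4221 in these data. The neighbours were less dense than Zfp608 but above the median gene, at 4.12 per 100 kb. Csnk1g3 had 60 shared distal peaks (9.62 per 100 kb) and Gramd3 had 63 (8.03), and both had promoter peaks in each replicate.

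Sequence composition and consensus motifs were compared over the 199 shared distal peaks of Zfp608. Their GC content was 48.4% ± 5.01 (SD over peaks), against 51.7% ± 6.79 over all 125447 shared distal peaks. Mostly repeat sequence made up 2 of them (1.01%, 0.276 to 3.59), against 4.30% of all. The core motif of CTCF, the insulator protein that halts cohesin, matched 0 of 199, which allows a share of up to 1.51% by a limit of 3 counts (Wilson upper bound 1.89%), against 4.15% of all. A looser core, chosen after seeing the data, matched 2 (1.01%) against 9.56%, at 268 and 557 kb upstream. In all peaks of the territory, shared or not, the core matched 0 of 256 and 0 of 270. Low CTCF shares were common to peak-rich territories: among the other 17 genes with at least 100 shared distal peaks the core share ran from 0 to 3.54%, with a median of 0.980%.

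Of the other 14 motifs, most lay near their background. The neural E-box CAGATG, bound by proneural factors, was in 21.1% of Zfp608 peaks (16 to 27.3) against 18.7% of all, and the E-box CAGCTG in 16.6% against 18.5%. Meis sites TGACAG were in 16.1% against 14.3%, homeodomain sites TAATTA in 4.52% against 3.35%, Sox sites AACAAT in 7.04% against 6.37% and TEAD sites GGAATG in 11.1% against 11.0%. GATA sites AGATAA were in 5.03% against 5.31%, and AP-1 sites TGANTCA in 5.03% against 5.29%. Nuclear receptor sites AGGTCA were in 13.1% against 12.8%, and ETS sites CCGGAAG in 1.51% against 1.43%. Forkhead sites TGTTTAC stood at 4.02% (2.05 to 7.73) against 1.97%, from 8 peaks, and Sp sites GGGCGG at 4.52% (2.40 to 8.37) against 8.28%. The NRF1 motif, given by name, was in 2 peaks (1.01%, 0.276 to 3.59) against 0.147%, and the NFI motif in 1 peak (0.503%) against 0.105%. Both strands were searched, a match is a match of letters and not a bound site, and motifs can overlap.

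**Figure D4:**
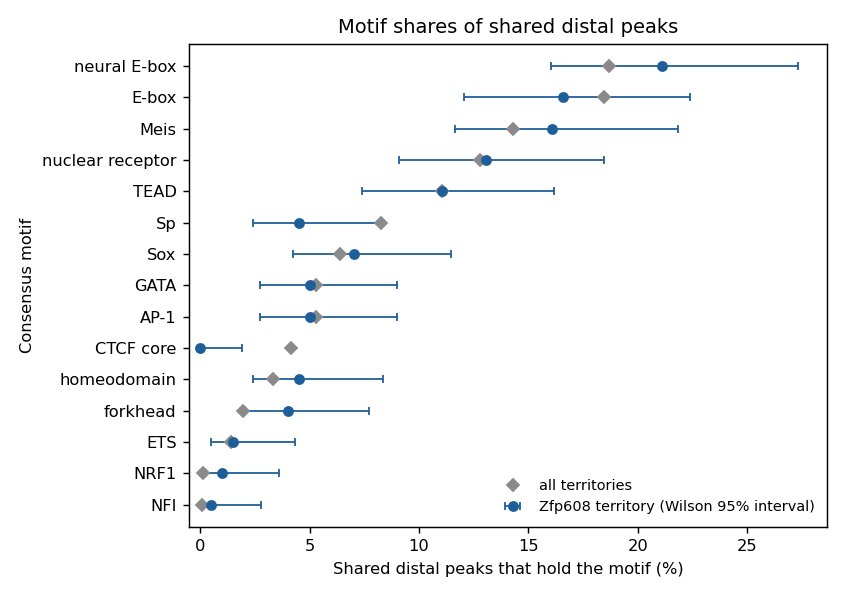
Points give the share (%) of the 199 shared distal peaks of the Zfp608 territory that hold each consensus motif, with Wilson 95% intervals, and diamonds the share over all 125447 shared distal peaks. The CTCF core stands at 0 against 4.15%, with its interval below the diamond, the intervals of the forkhead and NRF1 motifs lie above it, and those of the other 12 include it.

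Zfp609 (ENSMUSG00000040524.9), on the minus strand at chr9:65692391-65827564, has a longer body of 135 kb but sits among close neighbours. Its territory is 111 kb, bounded by Pclaf, a gene of a PCNA-binding protein whose start is 62.7 kb away on the upstream side, and Oaz2, an ornithine decarboxylase antizyme gene 160 kb away. The 3' end of Trip4, a transcriptional coactivator gene, lies inside the territory upstream. As the neighbouring start of Oaz2 is nearer to its far end, 55.4 kb of the Zfp609 body fall outside its territory.

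The Zfp609 promoter was open in both replicates. The peak at chr9:65827716-65827865, 227 bp from the TSS, scored 114 and 128, and the peak at chr9:65827216-65827365, 273 bp from it, scored 87 and 89. Both lay in a hotspot at the ceiling, 2267 bp wide where found in both replicates, which held 4 shared peaks and was the widest of the territory. So each paralog had strong promoter peaks, while their surroundings differed.

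Zfp609 had 21 territory peaks in replicate 1 and 15 in replicate 2, with 12 shared. The shared share from replicate 1 was 57.1% (36.5 to 75.5), against 79.5% of all replicate 1 peaks. From replicate 2 it was 80.0% (54.8 to 93.0), against 70.2% of all. The replicate 1 interval lay below the background and that of replicate 2 included it, and both were wide because the peaks are few. Distal peaks numbered 17 and 12 with 9 shared, or 8.10 per 100 kb, a rank of 3907 by number and 1448 by density. The gene body held 18 and 23 peaks with 13 shared, 6 of them in the part outside the territory. Replicate 1 had more peaks in the territory and replicate 2 more in the body, so neither was richer throughout. Body density was 9.62 per 100 kb, rank 1568 of 4996, against the median of 6.98. Hotspots found in both replicates covered 3.84% of the territory, against 2.11% of the genome. The territory ranked 804 of 5858 by this cover, where the median was 1.87%, so it too lay above the middle.

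In the short territory of Zfp609 no class of distance held more than 3 shared distal peaks, but density varied. From 1 to 10 kb upstream there were 5 and 3 peaks with 3 shared, all 3 over the 3' part of Trip4. That is 33.3 per 100 kb, against 7.26 over all genes. From 10 to 50 kb upstream the density was 4.69 against 5.90, and from 1 to 10 kb downstream 11.1 against 10.1. From 10 to 50 kb downstream 4 and 1 peaks gave 1 shared, or 2.5 against 6.23. The longest stretch without a peak in either replicate, 23.5 kb, lay in intron 1. From 50 kb to the downstream edge there were 3 and 6 peaks with 3 shared, at 10.1 per 100 kb against 6.27 over all genes. Intron 2 (63.4 kb) held 7 and 12 peaks with 5 shared. Within 50 kb of the TSS, Zfp609 had 14 and 6 distal peaks with 6 shared, beside a median of 5, and within 100 kb it had 19 and 18 with 10 shared, beside 11. By this measure Zfp609 was near the middle of all genes, with 54.7% and 43.3% of genes below it. Distal scores in the territory had medians of 32 and 55, against 41 and 46 for all distal peaks, thus lower in replicate 1 and higher in replicate 2. The scores of 80 and 87 were reached by 0 of 17 and 0 of 12, against 10.1% and 10.4% of all. With upper bounds of 18.4% and 24.2%, these intervals include the background.

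**Figure D5:**
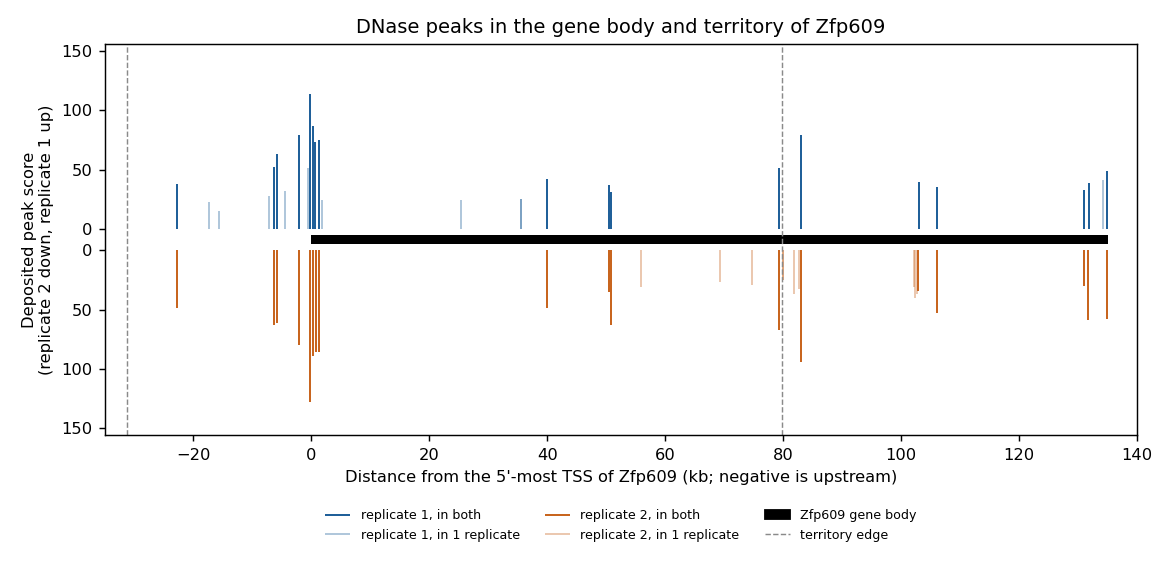
Peaks of replicate 1 (blue, upward) and replicate 2 (orange, downward) are drawn by distance from the TSS of Zfp609 (kb, upstream negative), with the deposited score as height and peaks of 1 replicate in pale colour. The black bar is the gene body and dashed lines are territory edges; the highest peaks stand at the promoter (114 and 128), and a shared intron 2 peak (79 and 94) lies past the downstream edge.

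The 6 best-ranked shared distal peaks of Zfp609 that overlap no annotated exon are printed to show what its candidate distal sites hold. They are the plus strand of the GRCm38 reference, 5' to 3', 150 bases each, with capitals marking matches to the searched motifs on either strand.
chr9:65744396-65744545: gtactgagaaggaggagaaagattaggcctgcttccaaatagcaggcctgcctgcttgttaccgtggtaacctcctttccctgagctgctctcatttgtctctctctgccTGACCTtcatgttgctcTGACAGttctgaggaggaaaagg
chr9:65826256-65826405: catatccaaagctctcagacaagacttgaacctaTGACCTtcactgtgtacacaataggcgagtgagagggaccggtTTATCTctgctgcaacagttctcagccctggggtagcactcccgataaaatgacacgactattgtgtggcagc
chr9:65748236-65748385: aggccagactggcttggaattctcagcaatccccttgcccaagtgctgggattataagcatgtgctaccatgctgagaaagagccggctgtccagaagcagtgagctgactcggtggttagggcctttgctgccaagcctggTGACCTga
chr9:65833796-65833945: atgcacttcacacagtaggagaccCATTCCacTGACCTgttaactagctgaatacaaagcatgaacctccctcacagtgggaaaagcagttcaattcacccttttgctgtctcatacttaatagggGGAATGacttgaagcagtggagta
chr9:65787576-65787725: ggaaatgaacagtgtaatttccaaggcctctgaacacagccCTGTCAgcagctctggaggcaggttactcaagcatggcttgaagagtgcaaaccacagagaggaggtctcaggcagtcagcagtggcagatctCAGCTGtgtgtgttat
chr9:65776676-65776825: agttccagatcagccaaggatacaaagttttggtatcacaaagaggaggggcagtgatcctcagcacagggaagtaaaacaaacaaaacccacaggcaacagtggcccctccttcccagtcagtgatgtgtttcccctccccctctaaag
The first, in intron 2 and 83.1 kb downstream, scored 79 and 94, the highest distal pair of the gene, and holds a Meis and a nuclear receptor match. The second, 1.23 kb downstream in intron 1, scored 75 and 86 and holds a GATA and a nuclear receptor match. The third (51 and 67) lies 79.3 kb downstream and the fourth (52 and 63) in an intron of Trip4 6.31 kb upstream, and each holds a nuclear receptor match, the fourth with TEAD matches as well. The fifth (42 and 49) holds an E-box and a Meis match, and the sixth (31 and 63) holds none of the motifs. Nuclear receptor letters were in 3 of the 9 shared distal peaks of the territory, against 12.8% of all, a number too small to set against that share.

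Set beside the 391 genes whose symbols are Zfp with a number, Zfp608 ranked 1 and Zfp609 ranked 44 by shared distal peaks, where the median was 1 and the upper quartile 4. Promoter peaks in both replicates were found at 88.5% of that group. Among territories from 0.8 of its own length up to a length of which its own is 0.8, Zfp608 ranked 1 of 182 (median 25) and Zfp609 ranked 599 of 2185 (median 6). The paralogs thus had promoter accessibility in common and differed in the number of distal peaks, a contrast that the choice of the pair already fixed.

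Reported partners and targets were checked in the same lists. All 14 Integrator genes had promoter peaks in both replicates, as did the cohesin loading genes Nipbl and Mau2 and the recombinase gene Rag1, giving 17 of the 18 listed genes against 70.3% of all. Rag2 had none in either replicate. Shared distal peaks were few: the median of the list was 1.5 and Nipbl had 9 (5.13 per 100 kb). Rag2 had 29, but in a territory of 1491 kb, which is 1.94 per 100 kb, and Rag1 had 1. That each of them had fewer than Zfp608 was fixed by the choice of Zfp608 and says nothing on these genes.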

How the data were processed

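DNase-seq peak and hotspot lists of 2 biological replicates of whole mouse embryos were used. Per the text deposited with them, every list comes from 1 replicate's filtered alignments to mm10, and replicates were not pooled. The aligner and the caller with its settings were not given in the sources used here. Each deposited peak carries a score, a whole number of unstated construction, used for ranks and medians within a list. Each deposited hotspot carries a value on the −log10 q-value scale of its broadPeak format, with a ceiling of 100.

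Peaks were placed by midpoint with Python 3.11.15, NumPy 2.4.6 and pandas 2.3.3 on the GRCm38 sequence and GENCODE M21. Overlap by 1 bp or more with the other list made a peak shared, and shared peaks are counted and placed by replicate 1. In the lists as deposited, 2.76% and 2.67% of peaks overlapped the one before them, and these were counted singly. Territory density is per 100 kb of assembled sequence. Intervals were computed by the Wilson method with SciPy 1.17.1, figures were drawn with Matplotlib 3.10.9, and the overlap and distance functions were tested on simulated data. Alternatives varied the overlap, score threshold, distal distance, territory rule, promoter definition, hotspot threshold and replicate used.

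The members, gene lists, motifs and alternatives were chosen with earlier results of these data known. Genes named are the members, the next protein-coding genes, the 10 genes with most shared distal peaks, noncoding genes starting within 500 bp of a shared peak, listed partners and the 5 genes most like each member. The likeness rule asked for at least 10 shared distal peaks, so it gave none for Zfp609. Trip4 and the printed peaks were named after their values were seen. Sequences of Zfp608 sites are not reported here.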

Additional observations from a re-analysis of the deposited data

How the results depend on the processing

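Of 78 recomputed values, 52 stayed near the reported one, 26 moved and 0 were counted as reversed. Most were counts, ranks, densities, covers or medians, which have no direction to change, so that 0 carries no weight. The upstream share of Zfp609 passed 50%, from 44.4% to 60% with better-scoring peaks, and was counted as moved. Counts and ranks were taken as near within 1.5 times, and densities, shares and median scores within 1 SD between the replicates. Zfp608 kept rank 1 by shared distal peaks with an overlap of 75 bp, with the better-scoring peaks, in either replicate alone and with overlapping peaks joined, the alternatives under which that rank was computed. Both promoter peaks stayed under each promoter definition. An overlap of 75 bp gave Zfp608 a density of 14.5 per 100 kb and a shared share of 74.2%. With the better-scoring 50% of peaks, Zfp608 had a density of 10.6, a shared share of 87.6% and an upstream share of 52.6%, and Zfp609 had 5 shared distal peaks, a density of 4.50, 6 body peaks, a shared share of 88.9% and an upstream share of 60%. Ranking by density gave 176 for Zfp608 and 1448 for Zfp609. Hotspots at the highest value covered 2.94% and 2.52% of the territories.

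Using all peaks of either replicate alone, the density of Zfp608 was 19.7 to 20.7, its hotspot cover 6.34 to 6.55% and its upstream share 55.5 to 56%. For Zfp609 the same choice gave 12 to 17 distal peaks, 10.8 to 15.3 per 100 kb, 18 to 23 body peaks, hotspot cover of 4.25 to 4.997%, an upstream share of 33.3 to 47.1% and a median score of 32 to 55. The cause of these shifts was not tested beyond what each construction implies. Joining overlapping peaks of a list, an alternative chosen after seeing the data, left Zfp608 with 197 shared distal peaks and Zfp609 with 9. No paired analysis was possible because the samples form 1 group. Unknown read depth limits any statement on peaks found in 1 replicate.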
